A study of Homo sapiens with 36 samples.

Results

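The DNAJ or HSP40 family is the set of co-chaperones that carry a J domain. Its members were taken by symbol, as every gene named DNAJA, DNAJB or DNAJC followed by a number, and 42 of the 36601 genes in the count table met this rule. By knowledge of where the proteins act, 22 were placed in a cytosolic group that also takes in nuclear, ribosomal and vesicle-bound members, 9 in the endoplasmic reticulum (ER), 5 in mitochondria, and 6 were left unassigned. By symbol, 4 were class A, 12 class B and 26 class C. The family was measured by bulk RNA sequencing in 12 libraries of HEK293, an established human line from embryonic kidney. Both of a pair of clones, numbered 4 and 5, were given either DMSO, the vehicle, or HyT36, which makes 4 groups of 3 libraries. The label of every group says that the cells came from a tagged library, in which guides direct HaloTag, an enzyme-derived protein tag, into endogenous genes. HyT36 is a hydrophobic ligand that binds HaloTag covalently and was used at 25 µM, and the study asked how cells respond when a tagged protein is made to misfold in this way.

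Each line was 1 clone, so a difference between the clones cannot be told apart from a difference between any pair of HEK293 clones. A guide named for HDAC2 had 2318 to 3504 reads per library in clone 4 and 2 to 18 in clone 5. One named for IGF1R had 2623 to 3806 reads in clone 5 and 5 to 13 in clone 4. One named for LRIG1 had 107 to 140 reads in clone 5 and 0 in clone 4. The table also held 55 guides named for DNAJA1, all with 0 reads in the 12 libraries. Untagged cells with the ligand were not among the 12 libraries, and whether the bulk cultures had the 2 h or the 12 h exposure of the study is not stated in the labels. Nor is it stated whether replicates were cultured apart, so the tests compare the groups with a spread between libraries that may be technical.

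J-domain proteins bind HSP70 chaperones, stimulate their ATP hydrolysis and bring them their clients. Class A and B members are general co-chaperones that also bind unfolded clients, whereas class C members share only the J domain and send HSP70 to one task or place, such as clathrin coats, ribosomes or the mitochondrial import channel. HSF1, the heat shock factor, drives several cytosolic members when proteins misfold in the cytosol, and the unfolded protein response drives several ER members when proteins misfold there.

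Gene counts per library lay between 22853946 and 28635511. Levels are given as CPM, the count relative to the library's size after TMM scaling, not divided by transcript length. Tests compare CPM within a gene, while an order of genes by CPM, or a sum over genes, is a share of reads that also reflects transcript length and is given only as a description. Of the 42 members, 35 had a mean of at least 5 CPM and 7 a lower mean, among them the testis gene DNAJB8 with 0 reads in all 12 libraries. DNAJB8 and DNAJB13, a gene of motile cilia with 37 reads in all, did not pass the filter on low counts, and 40 members were tested among 14892 genes. The HEK293 marker LIN28B stood at 128 to 160 CPM and PAX2 at 12.2 to 14.8 CPM, INA at 2.04 to 6.29 CPM, and the neurofilament genes NEFL and NEFM were at or near 0. In 6 libraries (the 3 of clone 5 with DMSO, and in clone 4 replicate 1 with DMSO and replicates 2 and 3 with HyT36) 10 epithelial marker genes led by KRT19 summed to 47.8 to 102 CPM, against 1.87 to 3.45 CPM in the other 6, where GRHL2 was at 0. KRT19 alone stood at 32.2 to 69.9 CPM in the first 6 and at 0.042 to 0.235 CPM in the others. Not all 10 genes followed the division. CDH1 (0.185 to 0.973 against 0.216 to 0.565 CPM), ESRP1 (1.25 to 4.52 against 0.391 to 2.12 CPM) and ELF3 (0.331 to 1.41 against 0.078 to 0.419 CPM) overlapped. In clone 5 this division coincides with the treatment, so the 2 cannot be told apart there except through a model that takes the size of the epithelial term from clone 4. As such a term the division was passed by 2.04% of the genes tested and by 0 of the 40 members (edgeR, with 3 members at an unadjusted p under 0.05). In bulk RNA, fewer cells of a type and less RNA per cell cannot be told apart.

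In clone 4, 5 of the 40 tested members rose with HyT36, DNAJB1, DNAJB4, DNAJB9, DNAJA1 and DNAJC13, and 1 fell, DNAJB2 (edgeR quasi-likelihood test, Benjamini-Hochberg adjusted p under 0.05 over all genes tested). These are 15% of the members, against 5.57% of all genes tested, 2.21% that rose and 3.36% that fell. In clone 5, 4 members rose, DNAJB1, DNAJB4, DNAJB9 and DNAJC13, and 4 fell, DNAJB2, DNAJB6, DNAJC5 and DNAJC3. These are 20% of the members, against 8.19% of all genes tested, 3.35% that rose and 4.83% that fell. The 5 members that passed in both clones moved in the same direction in both. The median log2 fold change of the family was 0.03 in clone 4 and -0.01 in clone 5 and that of all genes tested was 0.00 in each, with 23 positive and 17 negative values in clone 4 and 17 and 23 in clone 5. Class B supplied 4 of the 6 calls in clone 4 and 5 of the 8 in clone 5, from 10 tested members. Without regard to a test, all 3 HyT36 libraries of clone 4 were above all 3 DMSO libraries for 7 members and below for 3, against 11.7% and 11.8% of all genes, and in clone 5 for 5 and 5, against 11.4% and 13.8%.

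**Figure D1:**
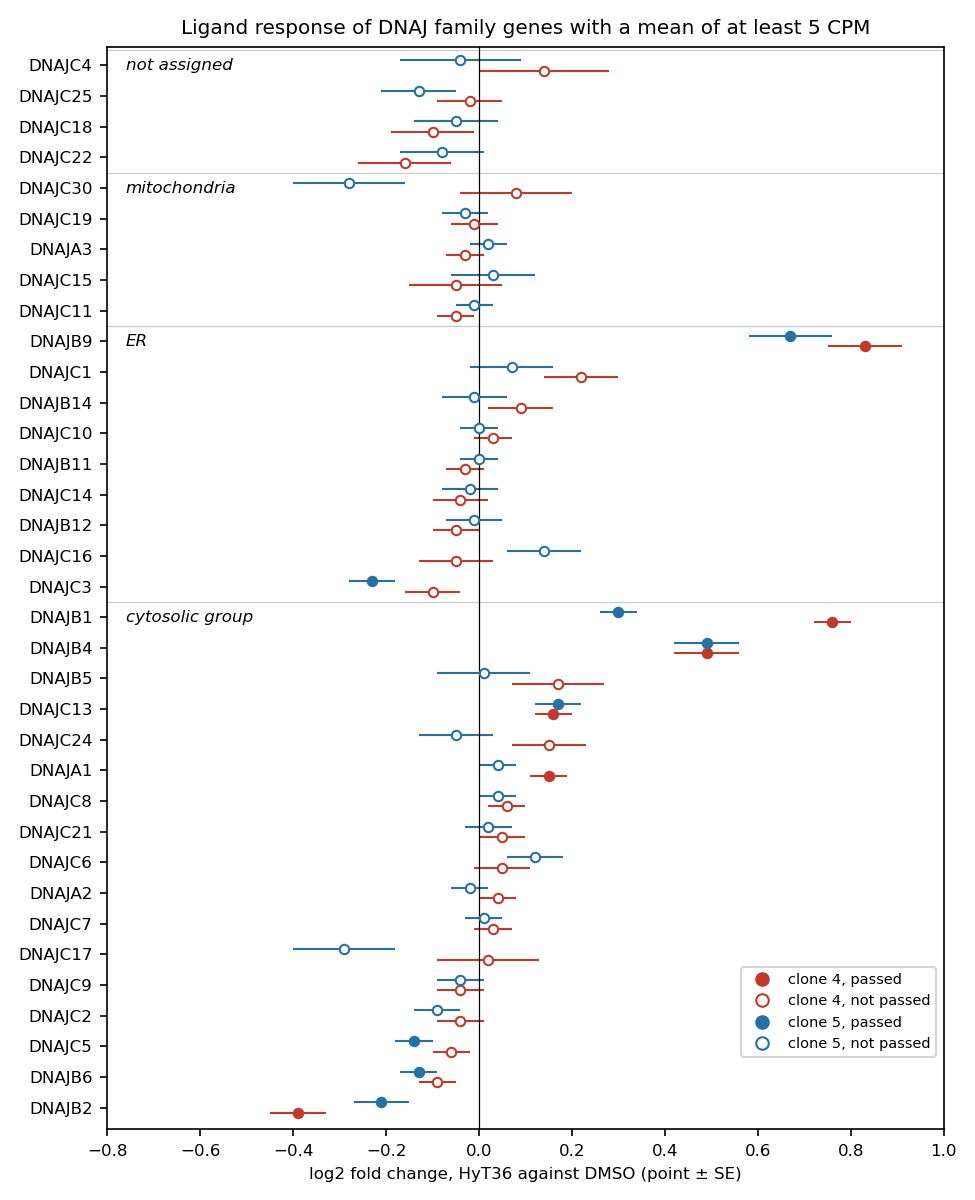
Log2 fold change of HyT36 against DMSO (horizontal axis, point ± SE) in clone 4 (red) and clone 5 (blue) for the 35 members with a mean of at least 5 CPM, by compartment, with filled points for an edgeR adjusted p under 0.05. DNAJB9 and DNAJB1 in clone 4 lie farthest to the right, at 0.83 and 0.76, DNAJB2 in clone 4 lies farthest to the left, at -0.39, and no mitochondrial or unassigned member has a filled point.

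Among the cytosolic members, DNAJB1, the canonical heat-inducible HSP40 that works with HSPA8 and HSPA1A on unfolded proteins, had the smallest p of the family. It stood at 97.6, 100 and 106 CPM in the clone 4 DMSO libraries and at 172, 165 and 176 CPM with HyT36. The clone 5 libraries had 96.3, 101 and 105 CPM with DMSO and 128, 118 and 126 CPM with HyT36. The DMSO libraries of the clones overlapped, and the 3 HyT36 libraries of clone 4 were above all others. DNAJB1 rose 1.69-fold in clone 4 (log2 fold change 0.76 ± 0.04 SE, edgeR adjusted p = 1.2e-16) and 1.23-fold in clone 5 (0.30 ± 0.04, edgeR adjusted p = 5.9e-06). The response of clone 5 was smaller than that of clone 4 by 0.46 ± 0.06 on the log2 scale, and this difference itself passed (edgeR adjusted p = 2.0e-05). It was the only one of 40 members to pass in the test of the difference, in which 0.302% of all genes did (0.128% with a larger and 0.175% with a smaller value in clone 5), and 3 members had an unadjusted p under 0.05. In clone 4 the rise was 0.74 ± 0.07 within the libraries of few epithelial transcripts and 0.81 ± 0.06 within those of many. Each of these fits leaves 1 library in 1 clone 4 group, HyT36 for few and DMSO for many. Its spread is taken from the other groups.

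DNAJB4, a heat-inducible paralog of DNAJB1 known from muscle disease, rose in both clones. Its level was 22.0, 20.4 and 21.0 CPM with DMSO and 30.6, 27.5 and 30.7 CPM with HyT36 in clone 4. The clone 5 libraries had 20, 19.8 and 19.5 CPM with DMSO and 27.3, 27.4 and 28.9 CPM with HyT36. No library with HyT36 overlapped one with DMSO. The log2 fold change was 0.49 ± 0.07 in clone 4 (edgeR adjusted p = 1.8e-06) and 0.49 ± 0.07 in clone 5 (edgeR adjusted p = 2.0e-06), and the difference of 0.01 ± 0.09 did not pass (edgeR adjusted p = 1.0). Within clone 4 the log2 fold change was 0.56 ± 0.11 in the libraries of few epithelial transcripts and 0.41 ± 0.10 in those of many. Both fits leave 1 library in 1 clone 4 group. DNAJB5, the third paralog of this branch, was low, with 8.79 to 9.94 CPM in the clone 4 DMSO libraries and 9.97 to 11.7 CPM with HyT36, and did not pass (0.17 ± 0.10, edgeR adjusted p = 0.38).

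The heat shock element bound by HSF1 is made of inverted GAA units, and DNAJB1 and DNAJB4 are shown here because both rose in both clones. RefSeq windows on GRCh38.p14 that hold the 250 bases before an annotated start existed for 39 of the 42 members, 51 windows in all. They were searched on both strands for GAANNTTC and TTCNNGAA, each a pair of units, and for the run of 3 units, GAANNTTC continued by NNGAA, which holds both pairs and so overlaps them. Of 35116 windows of all genes, 5.78%, 6.62% and 0.441% hold these letters, and of the members' windows 9.80%, 5.88% and 1.96%. The DNAJB1 window at chr19:14518398-14518647 on the minus strand, 1 of 3 for the gene, holds GAAGGTTC from 77 to 70 and GAAGCTTC from 47 to 40 bases before the start, and the DNAJB4 window at chr1:78004689-78004938 on the plus strand, 1 of 2, holds TTCTAGAA from 98 to 91 bases before the start. Both are printed 5′ to 3′ with those matches in capitals. Each was chosen among the windows of its gene for having the most matches, and the gene's other windows held no match of these kinds. The DNAJB4 window lies within the annotated gene, which spans chr1:77979175-78017964.
DNAJB1: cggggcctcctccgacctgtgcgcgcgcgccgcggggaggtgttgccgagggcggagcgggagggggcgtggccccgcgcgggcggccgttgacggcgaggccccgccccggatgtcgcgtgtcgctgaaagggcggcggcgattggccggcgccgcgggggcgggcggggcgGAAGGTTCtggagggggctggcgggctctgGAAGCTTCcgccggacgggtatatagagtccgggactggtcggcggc
DNAJB4: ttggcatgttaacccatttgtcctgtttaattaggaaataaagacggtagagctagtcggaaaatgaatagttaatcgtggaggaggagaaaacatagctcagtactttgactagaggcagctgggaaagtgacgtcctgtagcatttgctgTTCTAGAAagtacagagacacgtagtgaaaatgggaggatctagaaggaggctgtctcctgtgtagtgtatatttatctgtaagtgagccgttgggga
Matches of these kinds were also found before DNAJA1, DNAJA4, DNAJB6, DNAJB7 and DNAJC15, of which DNAJA1 rose in clone 4, DNAJB6 fell in clone 5 and the other 3 passed in neither response. A match in a window is a string of letters and was not tested as a binding site.

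DNAJA1, the major class A partner of HSPA8 in the cytosol, had the highest CPM of the family, with 20.4 to 24.2% of its summed CPM in each library. It stood at 575, 613 and 611 CPM in clone 4 with DMSO and at 698, 639 and 652 CPM with HyT36. Clone 5 had 549, 509 and 532 CPM with DMSO and 566, 541 and 527 CPM with HyT36. The groups did not overlap in clone 4 and did in clone 5. The rise in clone 4 was small (0.15 ± 0.04, edgeR adjusted p = 0.018) and was lost without HyT36 replicate 1, which was the highest (0.11, edgeR adjusted p = 0.18), without DMSO replicate 1 (adjusted p = 0.063), without HyT36 replicate 3 (adjusted p = 0.050) and in the libraries of few epithelial transcripts alone (0.19 ± 0.06, adjusted p = 0.074). In clone 5 the value was 0.04 ± 0.04 (edgeR adjusted p = 0.64), and the difference between the clones did not pass (-0.11 ± 0.06, edgeR adjusted p = 0.64). With the epithelial term this difference was -0.24 ± 0.07 (edgeR adjusted p = 0.051). Of the other class A members of the cytosol, DNAJA2 lay between 148 and 168 CPM in all 12 libraries and DNAJA4, a stress-inducible member, between 0.785 and 2.12 CPM, and neither passed in any comparison.

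DNAJC13 (RME-8), which recruits HSPA8 to endosomes to sort cargo, rose in both clones from different levels. It stood at 73.5, 73.1 and 72.4 CPM in clone 4 with DMSO and at 81.8, 83.0 and 79.8 CPM with HyT36. Clone 5 had 57.8, 58.5 and 58.3 CPM with DMSO and 65.1, 68.5 and 63.1 CPM with HyT36. All libraries of clone 5 lay under all libraries of clone 4, and within each clone the HyT36 libraries lay above those with DMSO. The log2 fold change was 0.16 ± 0.04 in clone 4 and 0.17 ± 0.05 in clone 5 (edgeR adjusted p = 0.022 and 0.011). The clone 4 call was lost without DMSO replicate 3, HyT36 replicate 1 or HyT36 replicate 2 (edgeR adjusted p = 0.071, 0.066 and 0.10) and within the libraries of few or of many epithelial transcripts (0.35 and 0.15), and the clone 5 call without HyT36 replicate 2 (0.082) and with the epithelial term (0.13), at nearly the same fold changes, 0.14 to 0.18.

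DNAJB2, which carries ubiquitin-interacting motifs and hands HSP70 clients to the proteasome, was the member that fell in both clones. Its level was 33.3, 37.7 and 36.1 CPM with DMSO and 28.2, 27.2 and 26.3 CPM with HyT36 in clone 4. In clone 5 it was 35.6, 34.8 and 36.7 CPM with DMSO and 32.0, 30.9 and 29.9 CPM with HyT36. Every HyT36 library lay under every DMSO library, in both clones. DNAJB2 fell by 0.39 ± 0.06 on the log2 scale in clone 4 (edgeR adjusted p = 3.0e-05) and by 0.21 ± 0.06 in clone 5 (edgeR adjusted p = 0.027), and the difference of 0.18 ± 0.09 did not pass (edgeR adjusted p = 0.61), nor did that of 0.03 ± 0.12 with the epithelial term (edgeR adjusted p = 0.97). The clone 5 call was lost without DMSO replicate 1 or 3 or HyT36 replicate 2 or 3 (edgeR adjusted p = 0.076, 0.12, 0.071 and 0.14), with DESeq2 (0.054) and without the filter (0.056), and the value was -0.32 ± 0.09 with the epithelial term (edgeR adjusted p = 0.021). Within clone 4 the fall was -0.39 ± 0.10 and -0.31 ± 0.09 in the libraries of few and of many epithelial transcripts. Both fits leave 1 library in 1 clone 4 group.

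DNAJB6, which keeps polyglutamine proteins from aggregating, and DNAJC5, the cysteine string protein of secretory vesicles, fell in clone 5 by small amounts near the threshold. DNAJB6 stood at 110, 111 and 113 CPM with DMSO and at 108, 97.1 and 99.2 CPM with HyT36 (-0.13 ± 0.04, edgeR adjusted p = 0.048). DNAJC5 stood at 102, 103 and 94.7 CPM with DMSO and at 93.1, 87.8 and 92.3 CPM with HyT36 (-0.14 ± 0.04, edgeR adjusted p = 0.042). The groups did not overlap for either gene, and in clone 4 the HyT36 libraries were also lower than those with DMSO without passing. In clone 4 DNAJB6 went from 118, 125 and 122 to 115, 111 and 115 CPM (-0.09 ± 0.04, edgeR adjusted p = 0.22) and DNAJC5 from 118, 127 and 120 to 118, 116 and 114 CPM (-0.06 ± 0.04, edgeR adjusted p = 0.43). The clone 5 calls held in few other analyses: of 19 alternatives 16 lost that of DNAJB6 and 15 that of DNAJC5, at values of -0.18 to -0.10 and -0.18 to -0.11. The window of DNAJB6 at chr7:157336754-157337003 on the plus strand is shown because it was the members' only window with the run of 3 units, in capitals from 131 to 119 bases before the start.
DNAJB6: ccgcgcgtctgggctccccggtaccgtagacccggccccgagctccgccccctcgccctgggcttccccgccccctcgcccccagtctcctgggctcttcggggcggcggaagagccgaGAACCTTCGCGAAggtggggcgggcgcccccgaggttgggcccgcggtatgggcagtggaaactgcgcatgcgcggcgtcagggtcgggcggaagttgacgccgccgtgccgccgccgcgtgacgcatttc

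Of the 21 tested cytosolic members, 4 rose and 1 fell in clone 4, and 3 rose and 3 fell in clone 5, where 2.21% and 3.36% of all genes tested rose and fell in clone 4 and 3.35% and 4.83% in clone 5. Those with at least 5 CPM that did not pass, 12 in clone 4 and 11 in clone 5, had log2 fold changes of -0.09 to 0.17 and of -0.29 to 0.12. At the lower end was DNAJC17, a nuclear member, with 8.46, 9.42 and 9.84 CPM in clone 5 with DMSO and 6.87, 7.21 and 8.70 CPM with HyT36, groups that overlapped (-0.29 ± 0.11, edgeR adjusted p = 0.10). The summed CPM of the cytosolic group was 1807 ± 49.4 with DMSO and 1954 ± 53.0 with HyT36 in clone 4 (SD, n = 3), higher by 8.15% without overlap (two-sided exact permutation test, p = 0.1, the smallest that 3 against 3 allows). In clone 5 it was 1665 ± 28.0 and 1699 ± 36.5 CPM, higher by 2.04% with overlap (exact permutation test, p = 0.3). In clone 4 most of this difference lay in DNAJA1 and DNAJB1, whose CPM together went from 700.9 ± 24.6 to 834 ± 33.4, whereas the other cytosolic members summed to 1106 ± 25.9 and 1120 ± 21.8 CPM with overlap (exact permutation test, p = 0.6).

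**Figure D2:**
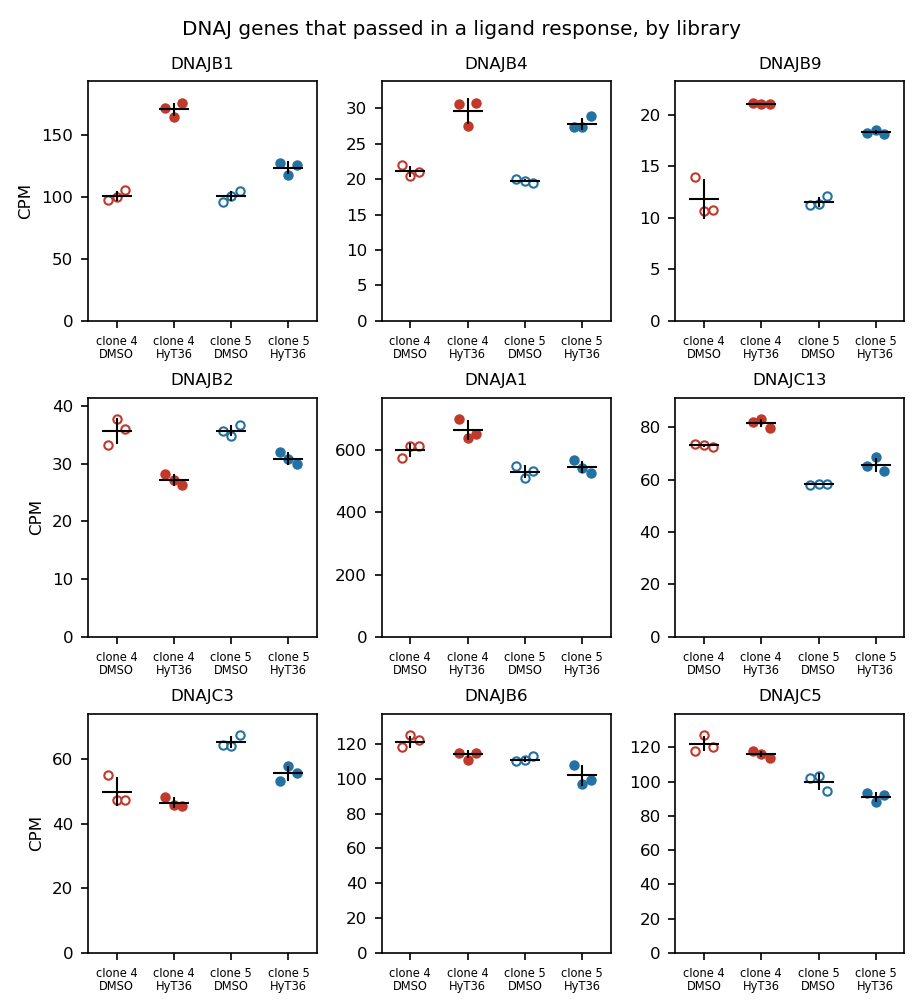
CPM in each library (points, open for DMSO and filled for HyT36, clone 4 red and clone 5 blue), with group mean and SD (black), for the 9 members that passed in at least 1 ligand response, each panel with its own vertical axis from 0. DNAJB1, DNAJB4 and DNAJB9 show HyT36 libraries above the DMSO libraries in both clones, DNAJB2 shows them below, and the levels of DNAJC13 and DNAJC3 also differ between the clones with DMSO.

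In the ER, 1 of 9 members rose in each clone, DNAJB9, and 1 fell in clone 5, DNAJC3. Of all genes tested, 2.21% rose and 3.36% fell in clone 4, and 3.35% rose and 4.83% fell in clone 5. DNAJB9 (ERdj4) is a lumenal co-chaperone of BiP that serves ER-associated degradation and holds the stress sensor IRE1 in check. Its level was 14, 10.7 and 10.8 CPM with DMSO and 21.1, 21.0 and 21.0 CPM with HyT36 in clone 4. In clone 5 it was 11.2, 11.3 and 12.1 CPM with DMSO and 18.2, 18.5 and 18.1 CPM with HyT36. The groups were far apart in both clones, and the highest DMSO library of clone 4 was replicate 1, the one with many epithelial transcripts. The clone 4 HyT36 libraries did not follow this division, with 21.1 CPM in the one of few and 21.0 CPM in each of the others. The rise was 1.78-fold in clone 4 (0.83 ± 0.08, edgeR adjusted p = 2.3e-09) and 1.59-fold in clone 5 (0.67 ± 0.09, edgeR adjusted p = 6.5e-07), and the difference did not pass (-0.16 ± 0.12, edgeR adjusted p = 0.78). Within clone 4 the rise was 0.97 ± 0.13 with few epithelial transcripts and 0.58 ± 0.12 with many, each with 1 library in 1 group. With the epithelial term it was 0.78 ± 0.09 in clone 4 and 0.83 ± 0.12 in clone 5 (edgeR adjusted p = 2.5e-09 and 6.3e-06).

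The DNAJB9 window at chr7:108569624-108569873 on the plus strand is printed because this was the ER member that rose in both clones. It was searched on both strands for TGACGTGG, an element of XBP1 and ATF6 that 0.612% of all windows hold, for the ER stress response elements, CCAAT and CCACG with 9 bases between and ATTGG and CCACG with 1 base between, and for TGATGNAA, an element of C/EBP and ATF4. None of these was in this window. TGACGTGG was found before DNAJC10, on the minus strand from 125 to 118 bases before its start.
DNAJB9: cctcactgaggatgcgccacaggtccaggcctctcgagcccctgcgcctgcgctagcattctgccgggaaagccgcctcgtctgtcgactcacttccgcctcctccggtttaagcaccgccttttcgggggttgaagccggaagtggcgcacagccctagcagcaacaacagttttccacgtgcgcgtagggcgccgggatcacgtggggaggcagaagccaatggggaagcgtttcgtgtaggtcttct

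DNAJC3 (p58IPK), a lumenal co-chaperone of BiP that also inhibits the kinase PERK, moved opposite to DNAJB9 in clone 5. It stood at 64.2, 63.9 and 67.3 CPM with DMSO and at 53.3, 57.9 and 55.7 CPM with HyT36 in clone 5, without overlap (-0.23 ± 0.05, edgeR adjusted p = 0.0048). In clone 4 it stood at 55.1, 47.2 and 47.2 CPM with DMSO and at 48.3, 45.6 and 45.3 CPM with HyT36, with overlap (-0.10 ± 0.06, edgeR adjusted p = 0.33). The difference between the responses did not pass (-0.13 ± 0.08, edgeR adjusted p = 0.72). The high clone 4 DMSO library was again the one with many epithelial transcripts. Among the clone 4 HyT36 libraries the order was the reverse, with 48.3 CPM in the one with few. The clone 4 value was -0.28 ± 0.07 within the libraries of many and 0.03 ± 0.09 within those of few. Each of these fits leaves 1 library in 1 clone 4 group. The epithelial term itself did not pass for DNAJC3 (0.07 ± 0.06, edgeR adjusted p = 0.86). With the epithelial term the fall in clone 5 was no longer called (-0.16 ± 0.08, edgeR adjusted p = 0.27).

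None of the other ER members passed in either ligand response. DNAJB11 (ERdj3), the lumenal member with the highest CPM in the ER group, lay at 124, 137 and 130 CPM in clone 4 with DMSO and at 129, 127 and 128 CPM with HyT36 (-0.03 ± 0.04, edgeR adjusted p = 0.72). In clone 5 it lay at 142, 142 and 143 CPM with DMSO and at 145, 144 and 139 CPM with HyT36 (0.00 ± 0.04, edgeR adjusted p = 0.98). DNAJC10 (ERdj5), the disulphide reductase of ER-associated degradation, lay between 116 and 137 CPM in all libraries and its values were 0.03 ± 0.04 and -0.00 ± 0.04. DNAJC1 (ERdj1), a membrane member at the ribosome, was at 15.0, 15.1 and 15.0 CPM in clone 4 with DMSO and at 18.9, 15.8 and 17.9 CPM with HyT36, without overlap, and did not pass (0.22 ± 0.08, edgeR adjusted p = 0.13). The members that did not pass had log2 fold changes of -0.10 to 0.22 in clone 4 (8 members) and -0.02 to 0.14 in clone 5 (7 members). The summed CPM of the ER group was 477.9 ± 9.73 and 485.9 ± 11.1 in clone 4 and 482.1 ± 5.24 and 480.3 ± 14.5 in clone 5 (SD, n = 3, exact permutation p = 0.6 and 1.0).

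None of the 5 mitochondrial members passed in either ligand response by edgeR, DESeq2 or limma-voom, and 0 in clone 4 and 1 in clone 5 had an unadjusted p under 0.05 (edgeR). By edgeR, 5.57% of all genes tested passed in clone 4 and 8.19% in clone 5. At such shares, 0 calls among 5 genes, here and for the unassigned members below, would be common. DNAJA3 (TID1), the matrix partner of HSPA9, was the one with the highest CPM, at 160, 174 and 160 CPM with DMSO and 162, 163 and 159 CPM with HyT36 in clone 4 (-0.03 ± 0.04). In clone 5 it stood at 138, 141 and 132 CPM with DMSO and at 143, 132 and 143 CPM with HyT36 (0.02 ± 0.04). All groups overlapped within a clone. DNAJC11, of the outer membrane, lay between 106 and 117 CPM in all 12 libraries, and DNAJC19, of the import motor, between 43.9 and 50.4 CPM. The widest value of the group was that of DNAJC30, an inner membrane member, with 7.29, 6.55 and 6.60 CPM in clone 5 with DMSO and 5.27, 5.47 and 6.07 CPM with HyT36, without overlap (-0.28 ± 0.12, edgeR adjusted p = 0.18). The summed CPM of the mitochondrial group was 337.9 ± 8.26 and 330.1 ± 2.65 in clone 4 and 318.6 ± 1.33 and 318.0 ± 6.24 in clone 5 (SD, n = 3, exact permutation p = 0.2 and 1.0). None of the 5 tested unassigned members passed either by these tools, with 0 at an unadjusted p under 0.05, and DNAJC25, the one with the highest CPM, was at 20.4, 19.9 and 22.0 and at 21.2, 19.4 and 21.0 CPM in clone 4, and at 21.3, 20 and 19.6 and at 16.8, 19.8 and 19.1 CPM in clone 5.

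Without ligand, the clones differed in 20 of the 40 tested members, 9 higher and 11 lower in clone 5. This 50% is below the 55.5% of all genes tested that passed in this comparison, where 27.3% were higher and 28.2% lower in clone 5. All 3 libraries of clone 5 were above all 3 of clone 4 for 8 members and below for 14, against 29.8% and 29.9% of all genes. The clone 4 DMSO and clone 5 DMSO libraries compared here are also the baselines of both ligand responses, so the values below are not independent of those above. All 3 clone 5 DMSO libraries had many epithelial transcripts, but only replicate 1 of clone 4 DMSO, so this comparison is unbalanced for that division. With the epithelial term, 9 members were higher and 9 lower in clone 5. The 4 largest differences among those called were in members that passed in no ligand response or, for DNAJC3, in clone 5 alone. DNAJB1, DNAJB2, DNAJB4 and DNAJB9 did not pass between the clones (-0.09 to 0.00, the widest being DNAJB4 at -0.09 ± 0.07 with edgeR adjusted p = 0.25).

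DNAJC22, a membrane protein whose fly homolog acts in endocytosis, was at 7.87, 7.53 and 6.83 CPM in clone 4 and at 13.7, 13.1 and 12.8 CPM in clone 5 (0.84 ± 0.10, 1.79-fold, edgeR adjusted p = 9.1e-10). DNAJC15 (MCJ), an inner mitochondrial membrane protein that restrains respiratory complex I, was at 8.21, 7.14 and 6.87 CPM in clone 4 and at 12.2, 11.8 and 12.2 CPM in clone 5 (0.70 ± 0.10, 1.63-fold, edgeR adjusted p = 5.9e-08). Both kept their separation with HyT36, where DNAJC22 was at 7.07, 6.77 and 6.04 against 11.6, 13.2 and 12.8 CPM and DNAJC15 at 7.61, 7 and 6.78 against 12.2, 13.1 and 11.7 CPM. DNAJC4 was at 5.12, 3.92 and 5.83 against 7.25, 7.10 and 7.07 CPM (0.53 ± 0.14, edgeR adjusted p = 0.0011). The libraries of the clones without ligand did not overlap for any of the 3. With HyT36, DNAJC4 was at 4.58, 5.63 and 6.16 against 6.53, 6.47 and 7.89 CPM. With the epithelial term its difference without ligand was 0.38 ± 0.16 (edgeR adjusted p = 0.044).

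DNAJC3 was higher in clone 5 by 0.39 ± 0.05 (edgeR adjusted p = 1.1e-07), with the DMSO values given above. DNAJC6 (auxilin), which sends HSPA8 to strip clathrin from vesicles, was at 37.3, 36.6 and 40.0 CPM in clone 4 and at 50.1, 48.6 and 48.0 CPM in clone 5 (0.36 ± 0.06, edgeR adjusted p = 6.4e-07). DNAJC24 (DPH4), of diphthamide synthesis, was at 14.3, 13.0 and 13.5 against 18.1, 16.3 and 17.4 CPM (0.34 ± 0.08, edgeR adjusted p = 4.4e-04). All 3 were higher in clone 5 without overlap. With HyT36, DNAJC6 was at 38.3, 41.6 and 37.6 against 53.6, 56.2 and 50 CPM, again without overlap, and DNAJC24 at 16.2, 14 and 15.2 against 17.9, 15.3 and 16.8 CPM, with overlap. The remaining rises were DNAJC18 (12.2, 15.7 and 12.6 against 15.7, 15.2 and 15.8 CPM, 0.20 ± 0.09, edgeR adjusted p = 0.047), DNAJB11 (0.12 ± 0.04, edgeR adjusted p = 0.0076) and the import motor gene DNAJC19 (45.4, 43.9 and 46.6 against 49.5, 48.3 and 50.4 CPM, 0.12 ± 0.05, edgeR adjusted p = 0.034). Of these, DNAJC18 was lost in 12 and DNAJC19 in 7 of 18 alternatives, and DNAJB11 without clone 4 DMSO replicate 1 (adjusted p = 0.078). With the epithelial term the value of DNAJC18 was 0.33 ± 0.11 (edgeR adjusted p = 0.0085). The HyT36 libraries had 13.6, 11.8 and 12.5 against 14, 15.5 and 15.5 CPM for DNAJC18 and 45.5, 44.2 and 45.1 against 48.7, 48.7 and 47.7 CPM for DNAJC19.

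**Figure D3:**
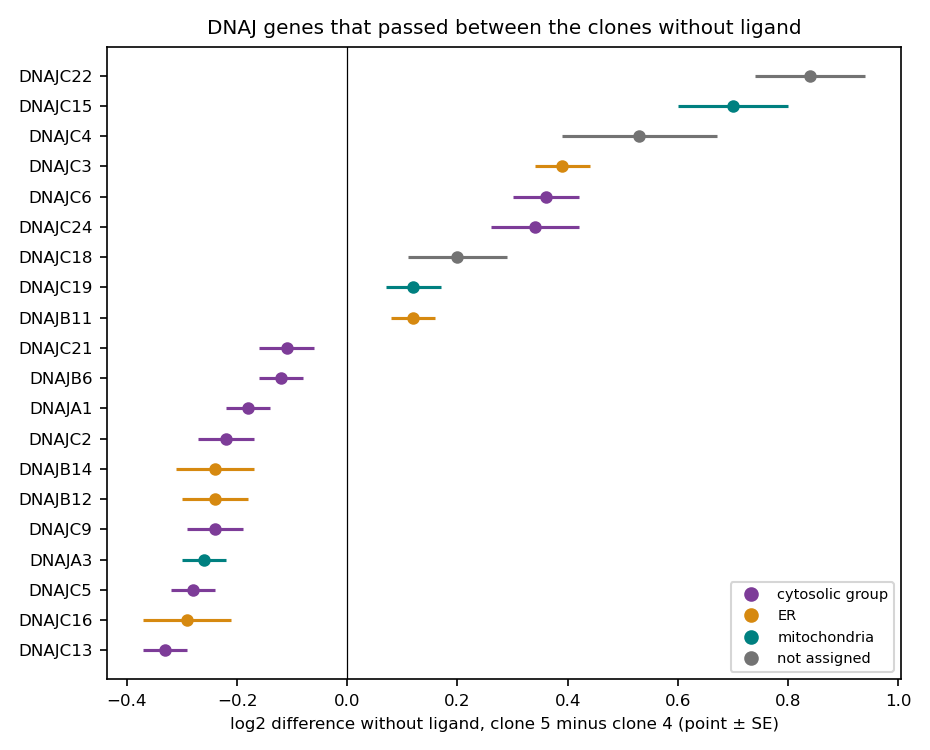
Log2 difference between clone 5 and clone 4 without ligand (horizontal axis, point ± SE) for the 20 members with an edgeR adjusted p under 0.05, coloured by compartment. The differences run from -0.33 for DNAJC13 to 0.84 for DNAJC22; 7 of the 11 lower members are in the cytosolic group, which holds 21 of the 40 tested members, and the unassigned members DNAJC22, DNAJC4 and DNAJC18 are all higher.

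Lower in clone 5 were 7 of the 21 tested cytosolic members, 3 of 9 ER members and 1 of 5 mitochondrial members, beside 28.2% of all genes tested. DNAJC13 was lowest (-0.33 ± 0.04, edgeR adjusted p = 6.1e-08), followed by DNAJC16 of the ER membrane and DNAJC5. DNAJC16 was at 19.3, 16.1 and 15.9 CPM in clone 4 and at 13.5, 15.4 and 13.0 CPM in clone 5 (-0.29 ± 0.08, edgeR adjusted p = 0.0030), and without clone 4 DMSO replicate 1 it was no longer called (-0.20 ± 0.09, edgeR adjusted p = 0.061). DNAJC5 was lower by 0.28 ± 0.04 (edgeR adjusted p = 3.9e-07) and DNAJA3 by 0.26 ± 0.04 (edgeR adjusted p = 7.4e-07), both without overlap in the values given above. DNAJC9, a histone chaperone, was at 61.4, 64.2 and 62.3 against 54.3, 51.1 and 53.2 CPM (-0.24 ± 0.05, edgeR adjusted p = 9.7e-05). DNAJC2 (MPP11), which forms the ribosome-associated complex with HSPA14, was at 49.8, 54.3 and 53.1 against 45.5, 45.8 and 43.2 CPM (-0.22 ± 0.05, edgeR adjusted p = 5.1e-04). Each of these genes separated the clones in all 6 libraries without ligand. With HyT36, DNAJC16 was at 16.6, 16.3 and 16.7 against 15.5, 15.6 and 15 CPM, DNAJC9 at 62.9, 58.9 and 61.1 against 54.4, 53 and 47.4 CPM and DNAJC2 at 52.9, 51.6 and 48 against 40.1, 42.9 and 43.6 CPM, and the clones were separate for each of them.

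DNAJB12 and DNAJB14 are paralogs in the ER membrane that recruit cytosolic HSP70 to misfolded membrane proteins, and both were lower in clone 5. DNAJB12 was at 45.9, 48.9 and 43.8 against 39.2, 39.6 and 38.7 CPM (-0.24 ± 0.06, edgeR adjusted p = 3.3e-04). DNAJB14 was at 41.5, 38.8 and 38.3 against 31.7, 32.5 and 35.8 CPM (-0.24 ± 0.07, edgeR adjusted p = 0.0020). DNAJA1 (-0.18 ± 0.04, edgeR adjusted p = 1.7e-04), DNAJB6 (-0.12 ± 0.04, edgeR adjusted p = 0.012) and DNAJC21, of ribosome assembly (71.9, 70.0 and 76.5 against 70.6, 66.4 and 65.4 CPM, -0.11 ± 0.05, edgeR adjusted p = 0.039), were the others. In the HyT36 libraries DNAJB12 was at 46.1, 43.6 and 44.2 against 40.7, 38.7 and 37 CPM, DNAJB14 at 44.4, 42.1 and 40.1 against 29.6, 36.8 and 33 CPM and DNAJC21 at 76.1, 76.5 and 74.1 against 67.7, 70 and 66.7 CPM, lower in every library of clone 5. With the epithelial term DNAJA1 moved to -0.11 ± 0.04 (edgeR adjusted p = 0.026) and DNAJB6 was no longer called (-0.09 ± 0.05, edgeR adjusted p = 0.13), nor without clone 4 DMSO replicate 2, and DNAJC21 was lost in 6 of 18 alternatives. The summed CPM of the cytosolic group differed by -7.88% and that of the mitochondrial group by -5.71% (clone 5 relative to clone 4), both without overlap (exact permutation p = 0.1 each, the smallest possible).

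**Figure D4:**
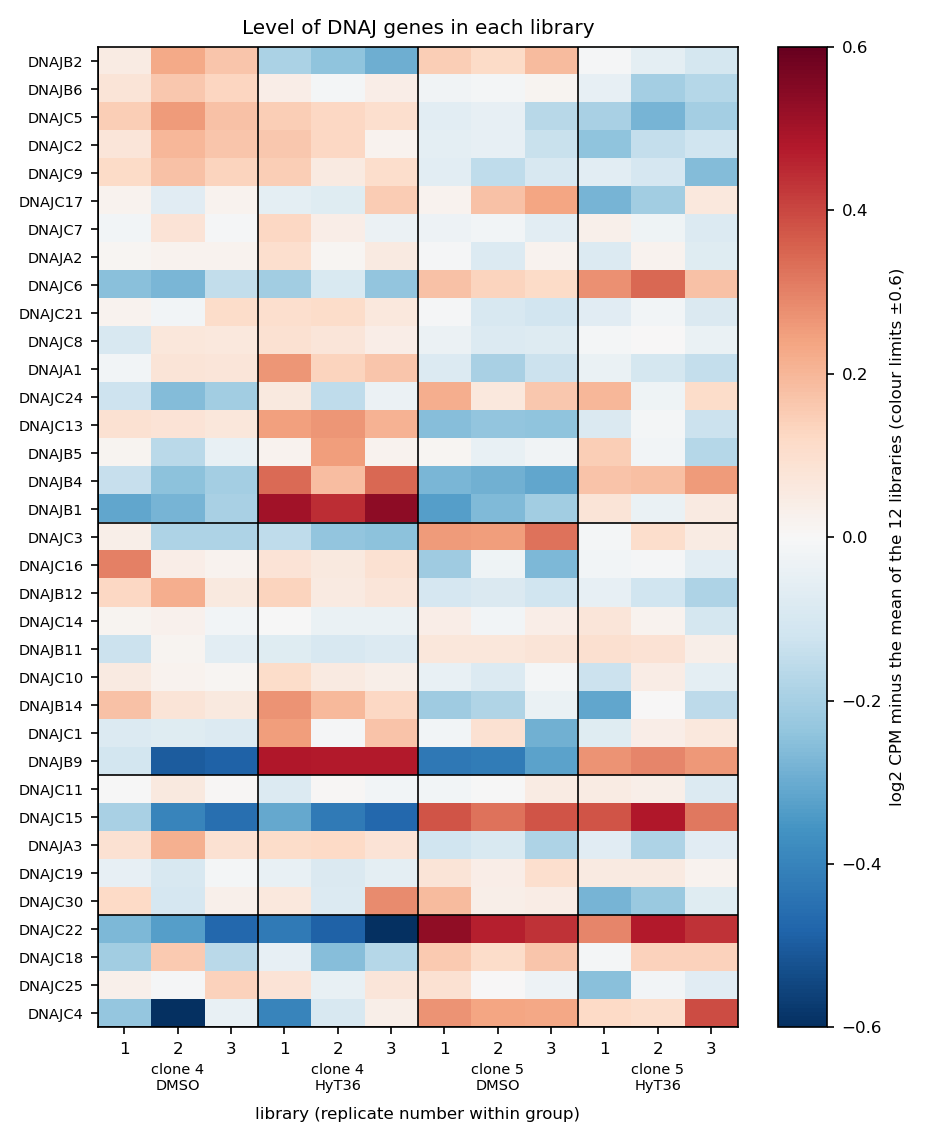
Log2 CPM minus the gene's mean over the 12 libraries (colour, values beyond ±0.6 drawn at the limit) for the 35 members with a mean of at least 5 CPM (rows, by compartment) in each library (columns, by group and replicate number). DNAJB1, DNAJB4 and DNAJB9 change between the DMSO and HyT36 columns of both clones, whereas DNAJC22, DNAJC15 and DNAJC6 divide the 6 libraries of clone 4 from the 6 of clone 5.

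The HSP70s on which the family acts, their nucleotide exchange factors and 2 further HSP70 partners, ST13 (Hip) and the ubiquitin ligase STUB1 (CHIP), are 21 genes, all tested. In clone 4, 8 of them rose and 1 fell, beside 2.21% and 3.36% of all genes tested, and in clone 5, 6 rose and 1 fell, beside 3.35% and 4.83%. HSPA8, the constitutive cytosolic HSP70 and the partner of DNAJB1 and DNAJA1, went from 2300 ± 37.0 to 2930 ± 111 CPM in clone 4 and from 1930 ± 37.7 to 2460 ± 85.7 CPM in clone 5 (SD, n = 3). The log2 fold change of HSPA8 was 0.35 ± 0.03 in each clone (edgeR adjusted p = 1.6e-09 and 3.0e-09), and the difference between these responses was 0.00 ± 0.05 (edgeR adjusted p = 1.0), beside -0.46 ± 0.06 for DNAJB1. HSPA1A and HSPA1B, the inducible pair, are near-identical and the split of reads between them is uncertain. Both rose in clone 4, by 0.64 ± 0.05 and 0.81 ± 0.06 (edgeR adjusted p = 1.2e-11 and 4.6e-13). Both also rose in clone 5, by 0.37 ± 0.06 and 0.52 ± 0.06 (edgeR adjusted p = 1.9e-05 and 2.3e-07). The clone 5 responses were smaller than those of clone 4 by 0.27 ± 0.08 and 0.29 ± 0.08 without passing (edgeR adjusted p = 0.17 and 0.20). HSPA13, a microsomal HSP70, went from 86.6 ± 4.07 to 103 ± 7.33 CPM in clone 4 and from 66.7 ± 1.73 to 87.2 ± 1.91 CPM in clone 5 (0.25 ± 0.05 and 0.39 ± 0.05, edgeR adjusted p = 3.5e-04 and 3.8e-07).

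By organelle, HSPA5 (BiP), the ER partner of DNAJB9, DNAJC3 and DNAJB11, rose from 868 ± 31.0 to 989 ± 16.8 CPM in clone 4 and from 818 ± 12.1 to 898 ± 22.9 CPM in clone 5 (SD, n = 3; 0.19 ± 0.03 and 0.14 ± 0.03, edgeR adjusted p = 3.5e-04 and 0.0095). HSPA9 (mortalin), the mitochondrial partner of DNAJA3, did not pass (0.07 ± 0.03 and 0.05 ± 0.03, edgeR adjusted p = 0.28 and 0.42). Its exchange factor GRPEL1 fell by 0.27 ± 0.04 in clone 4 and by 0.33 ± 0.04 in clone 5 (edgeR adjusted p = 1.8e-05 and 4.7e-07). The paralog GRPEL2 rose in clone 4 alone, from 39.5 ± 3.94 to 52.3 ± 1.73 CPM, and stood at 39.7 ± 0.345 and 40.1 ± 2.42 CPM in clone 5, a difference that passed (-0.39 ± 0.09, edgeR adjusted p = 0.022). Calls of the 21 partners come from the main fit alone and were not followed through the alternatives or the epithelial division. Between the clones without ligand, 15 of the 21 partners were lower in clone 5 and 1, BAG3, was higher, beside 28.2% and 27.3% of all genes tested, with BAG2 the one of smallest p (77.6 ± 5.55 against 51.4 ± 1.96 CPM, -0.59 ± 0.05, edgeR adjusted p = 3.2e-13). Of 4 tested J-domain proteins outside the symbol rule, none passed in either response by edgeR, DESeq2 or limma-voom, with 1 at an unadjusted p under 0.05 in clone 4 and 0 in clone 5 (edgeR). By edgeR, 5.57% of all genes tested passed in clone 4 and 8.19% in clone 5.

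The 16 tested members that passed in no comparison were accounted for by range. They include 5 with means under 5 CPM, DNAJC27, DNAJA4, DNAJC12, DNAJC28 and DNAJB7, whose SE reached 0.69 in clone 4 and 0.56 in clone 5, so that changes of the size seen for DNAJB1 were not detectable at this depth for the lowest of them. Among these, DNAJC28 was at 0.465, 0.275 and 0.458 CPM in clone 4 and at 0.0833, 0.258 and 0.182 CPM in clone 5 without ligand, without overlap, and did not pass (-1.14 ± 0.53, edgeR adjusted p = 0.063). The other 11 had at least 5 CPM, among them the co-chaperones DNAJA2, DNAJC7, an adaptor between HSP70 and HSP90, and DNAJC8, of the spliceosome. DNAJC7 lay between 90.0 and 104 CPM and DNAJC8 between 199 and 227 CPM in the 12 libraries, and their log2 fold changes in the ligand responses lay between 0.01 and 0.06.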

How the data were processed

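The authors deposited 1 table of raw gene counts for the 12 bulk libraries, per the file headers, with 36601 genes, 22344 guide features and 4 summary entries. Libraries were made from polyA RNA, per the labels' protocols. GRCh38 and Cell Ranger 7 appear, per the submitters' processing notes, without a role for bulk data. The aligner, the annotation and strandedness were not given in the sources used here. An antisense or overlapping gene can therefore share reads with a member. Only gene rows entered library sizes (genes made up 82.4 to 83.9% of deposited counts). The other 24 samples of the series, single-cell and guide libraries, were not analysed here.

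Counts were fitted with edgeR 4.0.16 (R 4.3.3): filterByExpr by group, TMM scaling, a mean per group over all 12 libraries, robust quasi-likelihood F-tests, two-sided, with Benjamini-Hochberg adjustment over 14892 genes and a threshold of 0.05. Fold changes use a prior count of 0.125, and the SE is approximated as |log2 fold change| / sqrt(F). Alternatives used DESeq2 1.42.0, limma 3.58.1 (voom), RLE scaling, no filter, each clone alone, a replicate block, and 1 library fewer. Two-sided exact permutation tests were used for summed CPM. The code was tested on simulated data. Replicates differed by more than sampling noise (chi-square per degree of freedom 1.90 to 8.15 over 12 pairs). The highest values, 8.15 and 7.01, were those of clone 4 DMSO replicate 1 with replicates 2 and 3, and all other pairs were at 4.52 or less.

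Members and lists were chosen with earlier results of these data known. Values of every library are given for members that passed in at least 1 of 4 comparisons (24) and for the highest of each compartment; of the partner and other J-domain lists, up to 6 of smallest p are named, and 1 gene that this rule names is not reported here. Further partners and members without a call were named after their values were seen. HSPA14 has 2 identifiers, of which that of the symbol table was used. Promoter windows are from RefSeq on GRCh38.p14.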

Additional observations from a re-analysis of the deposited data

Results flagged for a closer look

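The ligand response of DNAJB1 was smaller in clone 5 than in clone 4, with a difference of -0.46 on the log2 scale, and is listed because the difference between the clones itself passed the test (edgeR adjusted p = 2.0e-05). All 3 HyT36 libraries of clone 4 were above all 3 of clone 5, and the DMSO libraries of the clones overlapped. The difference kept its direction and its call in all 18 alternatives run, with values from -0.51 to -0.42. Each clone is 1 line, so the tagged gene and other differences between the clones cannot be told apart.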

How the results depend on the processing

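Of 1824 values of named members under alternatives, 1745 kept their side of the threshold, 78 lost a call, 1 gained one and 0 reversed in sign after a call. Most of the 1824 belong to comparisons in which the member had no call in the main fit, so no call could be lost there. Rises and falls of DNAJB1, DNAJB4 and DNAJB9 in both clones and of DNAJB2 in clone 4 held in every alternative run. The count of falls in clone 5 was the least stable: from 4 it went to 1 with DESeq2, without a low-count filter and with the epithelial class of the library as a term (chosen after seeing the data), and to 2 with RLE scaling, with each clone fitted alone and with the replicate number as a block. The count of rises in clone 4 went from 5 to 3 in the libraries of few epithelial transcripts alone, and that of falls from 1 to 2 in those of many, where DNAJC3 passed; these fits leave 1 library in 1 group, which is assumed to vary like the others. Leaving out 1 library gave 3 to 5 rises in clone 4 (3 without HyT36 replicate 1), 3 to 4 rises and 1 to 4 falls in clone 5, and 7 to 9 higher and 10 to 11 lower members between the clones; the lowest count of falls, 1, came without clone 5 DMSO replicate 1 or HyT36 replicate 2. The cause of these moves was not tested. Fits without a library also rest on fewer libraries. No pairing by replicate number was seen: 2 of 18 same-numbered pairs had a correlation of deviations over 0.1, within a range of -0.54 to 0.16. In clone 4 the correlations followed the epithelial division. DMSO replicate 1 was at -0.54 with HyT36 replicate 1 and at 0.38 with HyT36 replicate 2. The check therefore cannot decide whether samples were paired. The replicate block changed the call of DNAJB6 and DNAJC5 in clone 5 and of DNAJC18 and DNAJC21 between the clones. Members under 5 CPM carry standard errors too wide for small changes.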

Other observations

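DNAJC3-DT, a transcript annotated as divergent from DNAJC3, was higher in clone 5 without ligand, at 2.62 ± 0.282 CPM against 1.12 ± 0.201 CPM in clone 4 (SD, n = 3; log2 difference 1.22 ± 0.23, edgeR adjusted p = 2.1e-05), and did not pass in either ligand response (0.19 ± 0.25 and 0.25 ± 0.21, edgeR adjusted p = 0.74 and 0.57). DNAJC3 itself was higher in clone 5 by 0.39 ± 0.05. Strandedness of the counts was not stated, so reads of the pair cannot be told apart where they overlap. DNAJC9-AS1, antisense to DNAJC9, was lower in clone 5 without passing (-0.75 ± 0.51, edgeR adjusted p = 0.21).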
